A study of Mus musculus with 20 samples.

Results

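The genes described here encode 8 proteins of RNA sensing, Tlr3, Ifih1, Ddx58, Dhx58, Zbp1, Mavs, Eif2ak2 and Adar, taken as the rows of these 8 genes among the 39056 genes of a count table of mouse hippocampus. All 8 had enough reads to be tested. Each of 20 mice gave 1 RNA-seq library from the left hippocampus, with 5 female C57BL/6 mice in each of 4 groups at 12 to 13 months of age. WT Non-Tg mice were miR34a+/+ without the transgene, KO Non-Tg mice were miR34a-/- without it, WT Tg-SwDI mice were miR34a+/+ with the TgSwDI transgene and KO Tg-SwDI mice were miR34a-/- with it. TgSwDI is a human APP gene with the Swedish, Dutch and Iowa mutations, driven by the Thy1 promoter and so made mainly in neurons, and the knockout was constitutive and in the whole body. Behavioural tests came before the tissue was taken, and the study asked what the loss of miR-34a does in this amyloid model.

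RNA sensors tell the RNA of a virus, or the cell's own RNA in the wrong place or form, from normal RNA. Tlr3 reads double-stranded RNA inside endosomes, while the helicases RIG-I (Ddx58) and MDA5 (Ifih1) read it in the cytosol and both pass the signal to Mavs on the mitochondrial surface, from where interferon genes are switched on. Lgp2 (Dhx58) is the third helicase of that family and tunes the other two, Zbp1 binds Z-form nucleic acids and can start cell death, PKR (Eif2ak2) halts translation by phosphorylating eIF2 alpha, and Adar edits adenosines in double-stranded RNA so that it is not sensed. Several of these genes are themselves raised by interferon, through a promoter element called ISRE, and microglia and astrocytes are the brain cells best known for such responses.

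The sequences bear on 2 features that the choice of genes did not use, a copy of the ISRE at the start of the gene and a match to the seed of the deleted microRNA. The RefSeq promoter windows of the mm10 build (GRCm38.p6), which run from 250 bases before to 50 bases after a gene's start, were at hand for 6 of the 8 genes, with none for Dhx58 and Zbp1. The ISRE was searched on both strands as GAAA, 2 bases of any kind and GAAA again. That exact pattern was found in the windows of Ifih1, Ddx58 and Eif2ak2 and not in those of Tlr3, Mavs and Adar. Variants of the pattern were not counted, so a window without it may still hold an ISRE, and those of Tlr3 and Adar hold close variants. By comparison, 4.0% of 27025 genes had the exact pattern in a window. The 3 windows that hold it are shown 5′ to 3′ on the strand of the gene, with the match in capitals. In Ddx58 the match reads on the opposite strand.
Ifih1, minus strand of chr2:62646206-62646505: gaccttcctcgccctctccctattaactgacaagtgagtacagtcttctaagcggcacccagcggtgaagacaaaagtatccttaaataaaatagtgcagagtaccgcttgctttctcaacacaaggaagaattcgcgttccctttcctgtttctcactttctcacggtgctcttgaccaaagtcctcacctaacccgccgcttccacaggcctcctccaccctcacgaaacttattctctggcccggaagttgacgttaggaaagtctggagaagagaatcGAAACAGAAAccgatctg
Ddx58, minus strand of chr4:40239776-40240075: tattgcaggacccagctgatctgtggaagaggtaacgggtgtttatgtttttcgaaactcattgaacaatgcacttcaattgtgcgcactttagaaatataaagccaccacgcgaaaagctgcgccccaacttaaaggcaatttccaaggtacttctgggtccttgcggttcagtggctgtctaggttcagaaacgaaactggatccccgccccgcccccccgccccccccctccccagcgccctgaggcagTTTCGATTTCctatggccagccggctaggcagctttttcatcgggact
Eif2ak2, minus strand of chr17:78882523-78882822: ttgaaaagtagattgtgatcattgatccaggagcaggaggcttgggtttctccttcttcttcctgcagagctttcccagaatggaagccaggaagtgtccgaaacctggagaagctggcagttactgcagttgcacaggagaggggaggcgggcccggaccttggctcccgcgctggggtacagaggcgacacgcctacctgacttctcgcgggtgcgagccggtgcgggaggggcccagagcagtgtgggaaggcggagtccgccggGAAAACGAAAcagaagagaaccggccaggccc

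The matches began 33 bases (Ifih1), 3 bases (Ddx58) and 19 bases (Eif2ak2) after the gene's start. The element of interferon gamma signalling called GAS, searched as TTC and GAA with 3 bases between them, was found 178 bases before the start of Eif2ak2 and 23 bases after the third of the starts annotated for Adar, and in windows of 9.6% of genes. A match of letters is a description of the window and was not tested as a binding site.

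The mature sequence of the deleted microRNA, from RefSeq at chr4:150068473-150068494 on the plus strand, is shown with its seed (bases 2 to 8) in capitals, followed by the stretches of the longest annotated 3′UTR that pair with it, with the matching letters in capitals.
mmu-miR-34a-5p: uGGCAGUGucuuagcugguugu
Ddx58, minus strand, match at chr4:40205355-40205361: caccagactgACTGCCAgatcccttct
Mavs, plus strand, match at chr2:131247391-131247397: gccagaagcaACTGCCAggcctgagga
Adar, plus strand, match at chr3:89752631-89752638: ccctctggccCACTGCCAacagcaaaca

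Adar held an 8mer match, and Ddx58 and Mavs each held a 7mer match that ends in A. Tlr3, Ifih1, Dhx58, Zbp1 and Eif2ak2 held none, and 21.4% of 21018 genes with an annotated 3′UTR held a match of these kinds. Mir34a itself was not analysed here.

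Totals lay between 19549622 and 21066868 counts per mouse. The libraries carried hippocampal markers (summed level of 6 genes, among them Prox1 and Wfs1, 649 to 822 CPM, the count of a gene per 1e+06 counts of its library after TMM scaling). KO Tg-SwDI replicate 8 stood apart from the rest, with 14.6% of its counts on the 13 mitochondrial genes against 6.94% to 8.76% in the other 19 mice, and a scaling factor of 0.901 against 0.981 to 1.03. Results that rest on this mouse are given with and without it. Choroid plexus markers (10 genes, with Ttr and Folr1) summed to over 1000 CPM in 3 of 5 WT Non-Tg, 0 of 5 KO Non-Tg, 4 of 5 WT Tg-SwDI and 4 of 5 KO Tg-SwDI mice and to at most 356 CPM in the rest. Microglia markers (12 genes, with Csf1r and Cx3cr1) summed to 405 to 507 CPM in WT Non-Tg, 406 to 437 CPM in KO Non-Tg, 780 to 929 CPM in WT Tg-SwDI and 943 to 1264 CPM in KO Tg-SwDI mice. In whole tissue a change in the number of a cell type and a change in RNA per cell cannot be told apart.

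Per kilobase of exon, the scale on which genes can be compared, Adar was the highest of the 8 in all 4 groups, at 17.4 ± 1.31 CPM per kilobase in WT Non-Tg and 16.01 ± 2.25 in KO Tg-SwDI mice (SD, n = 5). Tlr3 came next, at 4.01 ± 0.537 and 6.01 ± 0.377. Mavs followed at 2.91 ± 0.503 and 3.62 ± 0.197. These 3 did not overlap with each other in any group. Below them stood the kinase and the 3 helicases, with Eif2ak2 at 1.19 ± 0.302 and 2.42 ± 0.567, Ddx58 at 1.18 ± 0.311 and 2.25 ± 0.604, Ifih1 at 0.877 ± 0.162 and 1.59 ± 0.398 and Dhx58 at 0.489 ± 0.116 and 1.06 ± 0.352. Eif2ak2 and Ddx58 overlapped in all 4 groups, so their order is not settled. The same holds for Ddx58 and Ifih1 in WT Non-Tg and KO Tg-SwDI mice, for Ifih1 and Dhx58 in KO mice with or without the transgene, and for Dhx58 and Zbp1 in KO Tg-SwDI mice. Zbp1 had the lowest mean, at 0.115 ± 0.0647 and 0.61 ± 0.289, resting on 1 to 28 reads per mouse in the 3 other groups and 10 to 70 in KO Tg-SwDI mice.

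**Figure D1:**
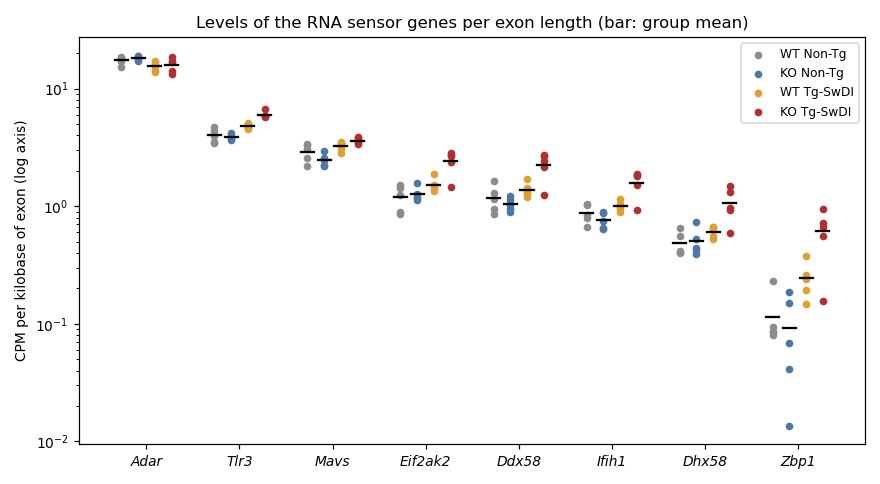
Levels of the 8 RNA sensor genes in CPM per kilobase of exon on a log axis, 1 point per mouse and a black bar for the mean of each group of 5. The genes keep the same order of means in the 4 groups, from Adar at 15.5 to 18.2 to Zbp1 at or below 0.610, and in KO Tg-SwDI mice the 5 lowest genes each have 1 point below the rest.

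The main question was what the loss of miR-34a changed in mice with the transgene. In KO against WT Tg-SwDI mice 5 of the 8 genes rose (Tlr3, Ifih1, Ddx58, Dhx58 and Eif2ak2), all by edgeR's quasi-likelihood test at a Benjamini-Hochberg adjusted p under 0.05, where 1.99% of all 16107 genes tested were called. Zbp1, with the largest log2 fold change of the 8, missed the threshold, and Mavs and Adar did not pass either. The rises of the 3 helicases and of the kinase were seen in 4 of the 5 KO Tg-SwDI mice. Replicate 8 lay within the WT Tg-SwDI range after TMM scaling, and below it for these 4 genes on library size alone.

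Tlr3, the endosomal sensor, measured 30.6, 34.7, 29.8, 30.6 and 30.7 CPM in KO Tg-SwDI replicates 1, 2, 3, 5 and 8. WT Tg-SwDI replicates 3 to 7 measured 23.6, 26.3, 23.9, 26.3 and 24.3 CPM. Every KO Tg-SwDI mouse was therefore above every WT Tg-SwDI mouse, replicate 8 included, as was so (higher without overlap) for 2.04% of all genes tested. The log2 fold change was 0.33 (SE 0.07, adjusted p = 0.0181), the smallest of the 5 rises and the one with the smallest error. It was 0.34 without replicate 8 (adjusted p = 0.0161). In Non-Tg mice Tlr3 measured 20.4, 18.1, 22.8, 18.4 and 24.5 CPM in WT replicates 2, 3, 4, 6 and 7, and 19.996, 21.8, 19.2, 19.8 and 20.4 CPM in KO replicates 1, 2, 4, 7 and 8.

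Ifih1 (MDA5), which reads long double-stranded RNA, measured 15.2, 12.4, 14.98, 14.8 and 7.54 CPM in the KO Tg-SwDI mice in the same order. The WT Tg-SwDI mice measured 9.48, 7.71, 7.27, 8.60 and 8.04 CPM. The first 4 KO mice were above all WT mice, and replicate 8 was below all but 1 of them. The log2 fold change was 0.66 (SE 0.16, adjusted p = 0.0316), and 0.80 without replicate 8 (SE 0.12, adjusted p = 0.00105). WT Non-Tg mice measured 6.81, 6.55, 8.41, 5.45 and 8.59 CPM and KO Non-Tg mice 7.22, 7.21, 5.26, 5.33 and 6.14 CPM, so that replicate 8 fell within the range of mice without the transgene.

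Ddx58 (RIG-I), which reads short RNA ends with a triphosphate, followed the same layout over mice. KO Tg-SwDI mice measured 18.98, 15.1, 17.3, 19.2 and 8.87 CPM, and WT Tg-SwDI mice 10.05, 8.37, 9.03, 12.1 and 9.23 CPM. Here too replicate 8 was the only KO mouse within the WT range. The log2 fold change was 0.71 (SE 0.18, adjusted p = 0.0496), at the edge of the threshold, and 0.86 without replicate 8 (SE 0.14, adjusted p = 0.00284). Non-Tg mice measured 8.18, 6.10, 9.16, 6.65 and 11.6 CPM (WT) and 8.04, 8.68, 7.29, 6.33 and 6.72 CPM (KO).

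Dhx58 (Lgp2) had fewer reads, 26 to 102 per mouse. KO Tg-SwDI mice measured 4.83, 3.13, 4.35, 3.03 and 1.93 CPM and WT Tg-SwDI mice 1.74, 2.18, 2.16, 2.08 and 1.82 CPM. Replicates 2 and 5 were nearer to the WT mice than replicates 1 and 3, and replicate 8 was among the WT mice. The log2 fold change was 0.80 (SE 0.21, adjusted p = 0.0432), and 0.95 without replicate 8 (SE 0.19, adjusted p = 0.00816). In Non-Tg mice the values were 1.84, 1.34, 1.36, 1.30 and 2.15 CPM (WT) and 1.72, 2.42, 1.399, 1.30 and 1.45 CPM (KO).

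Eif2ak2 (PKR) measured 14.6, 12.1, 14.1, 13.7 and 7.49 CPM in KO Tg-SwDI and 9.53, 7.19, 6.92, 7.73 and 7.46 CPM in WT Tg-SwDI mice. Again 4 KO mice were above all 5 WT mice and replicate 8 was within their range. The log2 fold change was 0.68 (SE 0.16, adjusted p = 0.0391), and 0.81 without replicate 8 (SE 0.14, adjusted p = 0.00228). Non-Tg mice measured 6.43, 4.41, 7.33, 4.598 and 7.78 CPM (WT) and 6.46, 8.01, 5.79, 5.95 and 6.05 CPM (KO).

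Zbp1, the sensor of Z-form nucleic acids, measured 3.31, 2.35, 1.98, 2.56 and 0.551 CPM in KO Tg-SwDI mice, from 70, 45, 41, 50 and 10 reads. WT Tg-SwDI mice measured 0.516, 0.851, 0.687, 0.918 and 1.34 CPM. All KO mice but replicate 8 exceeded all WT mice, and that mouse was lower than all but 1 of them. The log2 fold change of 1.32 was the largest of the 8 but had the largest error (SE 0.39, adjusted p = 0.0747). Without replicate 8 it was 1.56 (SE 0.32) and passed (adjusted p = 0.0115). DESeq2 called it with all mice (adjusted p = 0.0451), where that method called 733 of 16107 genes against 320 in the main fit. Non-Tg mice measured 0.331, 0.298, 0.282, 0.30 and 0.811 CPM (WT) and 0.526, 0.664, 0.145, 0.048 and 0.242 CPM (KO).

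Mavs, the adaptor that RIG-I and MDA5 share, measured 11.3, 12.9, 12.7, 12.05 and 11.7 CPM in KO Tg-SwDI and 11.6, 11.7, 10.5, 11.4 and 9.47 CPM in WT Tg-SwDI mice. The groups overlapped, and the log2 fold change of 0.15 did not pass (95% confidence interval from -0.07 to 0.36, adjusted p = 0.461). Adar, the editing enzyme, measured 108, 139, 137, 151 and 114 CPM in KO Tg-SwDI and 132, 113, 117, 141 and 126 CPM in WT Tg-SwDI mice. In Non-Tg mice Mavs measured 11.02, 7.39, 11.4, 8.65 and 10.2 CPM (WT) and 8.61, 9.91, 8.20, 7.48 and 7.40 CPM (KO), and Adar measured 146, 151, 139.7, 147 and 124 CPM (WT) and 147, 155, 144, 139.5 and 154 CPM (KO). In Tg-SwDI mice all WT values of Adar lay within the range of its KO values, with a log2 fold change of 0.05 (interval from -0.11 to 0.21, adjusted p = 0.790). The counts of Adar sum its interferon-driven long form and its constant short form, which a count per gene does not separate.

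**Figure D2:**
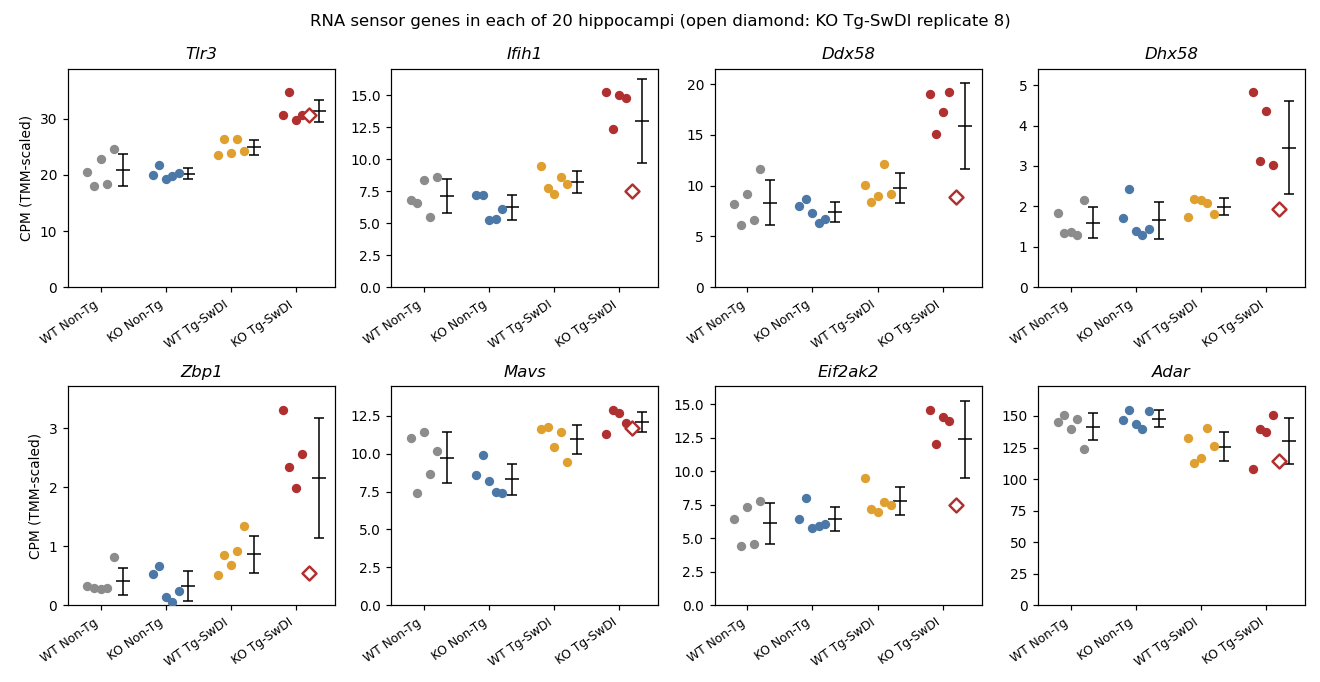
CPM of each RNA sensor gene in every mouse, 1 panel per gene and 1 colour per group, with a bar for the mean and whiskers for ± SD (n = 5). On this TMM scale KO Tg-SwDI replicate 8 (open diamond) lies with the WT Tg-SwDI mice for Ifih1, Ddx58, Dhx58, Zbp1 and Eif2ak2, and among the other KO Tg-SwDI mice for Tlr3 and Mavs. For Mavs it is also within the WT Tg-SwDI range.

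KO Tg-SwDI replicate 8 thus split the sensors. Relative to the mean of the other 4 KO Tg-SwDI mice it had 0.526 times the level of Ifih1, 0.502 of Ddx58, 0.503 of Dhx58, 0.550 of Eif2ak2 and 0.216 of Zbp1, but 0.975 of Tlr3 and 0.955 of Mavs, with Adar at 0.851. It also lay within the WT Tg-SwDI range for Mavs and Adar, for which the KO and WT mice overlapped. These placements rest on TMM scaling. On library size alone replicate 8 was below the lowest WT Tg-SwDI mouse for Ifih1 (6.79 against 7.24 CPM), Ddx58 (7.98 against 8.54) and Dhx58 (1.74 against 1.79). The same held for Eif2ak2 (6.74 against 6.90), Zbp1 (0.496 against 0.532) and Adar (102.7 against 114.8). Tlr3 stayed above all WT Tg-SwDI mice (27.6 against at most 26.8 CPM). The 12 genes of an interferon response list (among them Irf9, Isg15, Ifit1, Mx1 and Rtp4) summed to 85.0 CPM in it against 141 to 222 CPM in the other 4 and 88.9 to 102 CPM in WT Tg-SwDI mice. Its microglia markers (943 CPM) were the lowest of the KO Tg-SwDI group and narrowly above the highest WT Tg-SwDI mouse (929 CPM). Its astrocyte markers (6124 CPM) were the group's median. Its neuron markers (7747 CPM) and hippocampal markers (822 CPM) were the highest of all 20 mice. These sums depend on its low scaling factor of 0.901. With the 13 mitochondrial genes left out before scaling, the same number of sensors, 5, was called. Without replicate 8, 6 of 8 sensors rose (1.99% of 16224 genes called), and 6 were higher without overlap (3.56% of all genes). The part of the mitochondrial share in these values was not tested.

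**Figure D3:**
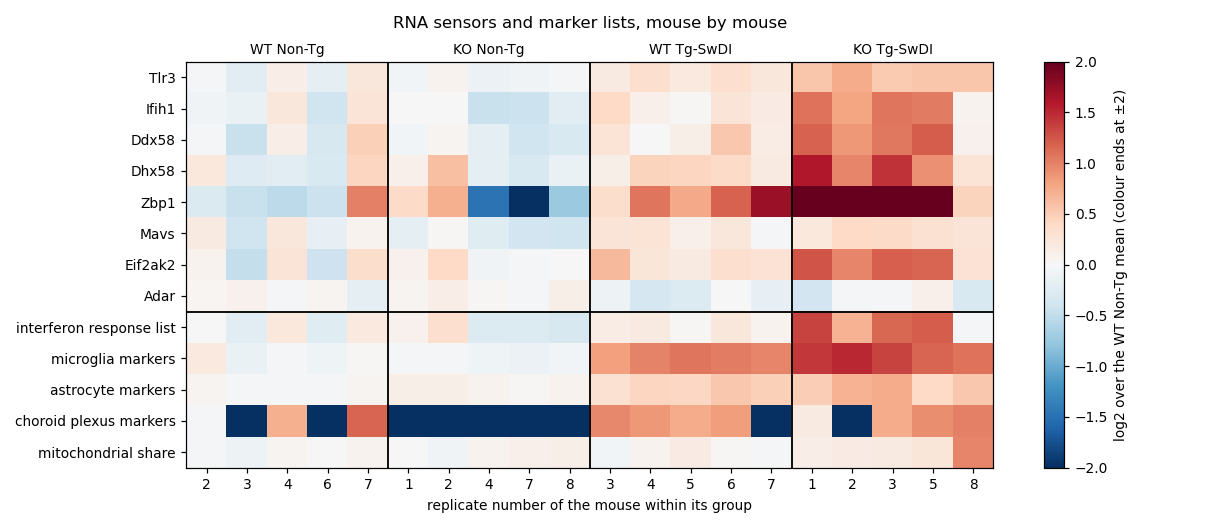
Each RNA sensor gene and 5 library measures in every mouse, as log2 over the WT Non-Tg mean, with mice in columns by group and replicate number (colour ends at ±2). In the last column, KO Tg-SwDI replicate 8, the interferon response list, Ifih1 (log2 0.08) and Ddx58 (0.09) are near the WT Non-Tg mean. Mavs (0.26), Dhx58 (0.27), Eif2ak2 (0.29), Zbp1 (0.45) and Tlr3 (0.56) are above it, as are microglia markers (943 CPM) and the mitochondrial share (14.6%).

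The count of 5 also depended on other single mice, and 4 of the 5 adjusted p-values lay between 0.0316 and 0.0496. It fell to 0 without WT Tg-SwDI replicate 5 or 7, to 1 without WT Tg-SwDI replicate 4 or KO Tg-SwDI replicate 3, to 2 without WT Tg-SwDI replicate 3 or 6, KO Tg-SwDI replicate 1 or 5 or KO Non-Tg replicate 8, and to 3 without WT Non-Tg replicate 4 or KO Non-Tg replicate 1, 4 or 7. Without WT Non-Tg replicate 2 or 6 or KO Non-Tg replicate 2 it was 4, with Ddx58 lost. The calls over all genes also changed, from 320 with all mice to 124 without WT Tg-SwDI replicate 5, 78 without replicate 7 and 235 without replicate 4 of that group, and to 210 without KO Tg-SwDI replicate 3, but were 447 without KO Tg-SwDI replicate 1. The call of Tlr3 was lost without WT Tg-SwDI replicate 3, 5 or 7, and was kept without any other single mouse. The log2 fold changes stayed above 0 with any 1 mouse left out, from 0.30 to 0.35 for Tlr3, 0.60 to 0.80 for Ifih1, 0.63 to 0.86 for Ddx58, 0.65 to 0.95 for Dhx58 and 0.61 to 0.81 for Eif2ak2. With the replicate number as a block 0 sensors were called (adjusted p = 0.191 for Tlr3 and 0.278 for Ifih1). Deviations of mice with the same number correlated from -0.40 to 0.15, which showed no pairing but cannot exclude one. Library size alone as the scaling also gave 0, with Tlr3 at 0.0598 and Ddx58 at 0.0821. Only the 10 mice compared gave 1, Tlr3, with 58 genes called in all. With the GC and length trend removed 4 were called, without Dhx58 (adjusted p = 0.0643). Of 12 microglia markers 4 were called higher in this comparison (6 without replicate 8), and their part in the rise of the sensors was not tested. Choroid plexus markers were above 1000 CPM in 4 of 5 mice of both groups. Those 8 mice were fitted together with the 3 WT Non-Tg mice above 1000 CPM. The log2 fold changes between the 2 Tg-SwDI groups were then 0.29 for Tlr3, 0.68 for Ifih1, 0.71 for Ddx58, 0.81 for Dhx58 and 0.68 for Eif2ak2. None of them was called, and 26 genes were called in all.

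Without the transgene the loss of miR-34a left no sensor called (0 of 8, with 0% of all genes called by edgeR's quasi-likelihood test, 1302 genes at an unadjusted p under 0.05 and 7 called by DESeq2, none of them a sensor). The log2 fold changes were -0.04 for Tlr3 (95% confidence interval from -0.20 to 0.11), -0.20 for Ifih1 (-0.54 to 0.14), -0.17 for Ddx58 (-0.57 to 0.23), 0.05 for Dhx58 (-0.42 to 0.52) and 0.08 for Eif2ak2 (-0.28 to 0.44). Zbp1 stood at -0.31, with the widest interval (-1.51 to 0.89). Mavs stood at -0.23 (-0.44 to -0.01, adjusted p = 0.609) and Adar at 0.06 (-0.10 to 0.23). The 2 groups overlapped for all 8 genes. Choroid plexus content moved with this comparison: the 3 WT Non-Tg mice above 1000 CPM (replicates 2, 4 and 7) had 6.81 to 8.59 CPM of Ifih1, 8.18 to 11.6 of Ddx58, 6.43 to 7.78 of Eif2ak2 and 10.2 to 11.4 of Mavs, against 5.45 to 6.55, 6.10 to 6.65, 4.41 to 4.598 and 7.39 to 8.65 in the other 2. Tlr3 (20.4 to 24.5 against 18.1 to 18.4 CPM) and Dhx58 (1.36 to 2.15 against 1.30 to 1.34 CPM) were higher in the same mice, Zbp1 overlapped (0.282 to 0.811 against 0.298 to 0.300 CPM) and Adar was lower (124 to 146 against 147 to 151 CPM), while all 5 KO Non-Tg mice were low in these markers. With a choroid plexus score in the fit the log2 fold change of Ifih1 was -0.09, that of Ddx58 -0.01 and that of Mavs -0.11.

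The change with miR-34a loss was larger with the transgene than without it for 7 of 8 sensors by its estimate, but 0 of 8 passed the test of that difference (the interaction, 0.608% of genes called). Ifih1 came nearest, with an interaction of 0.86 (interval from 0.40 to 1.33, adjusted p = 0.0687), followed by Tlr3 with 0.37 (0.16 to 0.59, adjusted p = 0.0767) and Ddx58 with 0.88 (0.32 to 1.43, adjusted p = 0.112). All but Adar, at -0.02, had unadjusted p-values under 0.05. Without KO Tg-SwDI replicate 8, Ifih1 (1.01, adjusted p = 0.00733) and Ddx58 (1.03, adjusted p = 0.0153) passed, where 1.29% of genes did. Tlr3 passed without WT Non-Tg replicate 3 (0.42, adjusted p = 0.0407), and Ifih1 also without WT Non-Tg replicate 6 (0.95, adjusted p = 0.0422) or KO Tg-SwDI replicate 2 (0.89, adjusted p = 0.0414). DESeq2 called Tlr3 (adjusted p = 0.0262), Ifih1 (0.0119) and Ddx58 (0.0243) with all mice. It called more genes in all, 479 of 16107 against 98 in the main fit.

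In WT mice the transgene raised 1 of the 8, Tlr3, by a log2 of 0.25 (SE 0.07, adjusted p = 0.0432), where 4.41% of genes were called. The WT Tg-SwDI mice (23.6 to 26.3 CPM) overlapped with the WT Non-Tg mice (18.1 to 24.5 CPM), of which the 2 highest, replicates 4 and 7, were high in choroid plexus markers. Among mice above 1000 CPM of these markers the log2 fold change was 0.15 (adjusted p = 0.682), and with the trend on GC content and length removed it was 0.16 (adjusted p = 0.256). The call was lost without any 1 of 11 mice, namely WT Non-Tg replicates 2, 3 and 6, KO Non-Tg replicates 1, 4, 7 and 8 and WT Tg-SwDI replicates 4, 5, 6 and 7, with log2 fold changes from 0.21 to 0.32 over all mice left out. The helicases and the kinase did not pass, at 0.20 for Ifih1 (interval from -0.13 to 0.53), 0.23 for Ddx58 (-0.17 to 0.62), 0.32 for Dhx58 (-0.14 to 0.77) and 0.34 for Eif2ak2 (-0.01 to 0.70). Zbp1 was at 1.08 (0.06 to 2.09, adjusted p = 0.289), Mavs at 0.17 and Adar at -0.17 (-0.33 to -0.01, adjusted p = 0.296). All 12 microglia markers rose in the same comparison, with a median log2 of 0.85, where the median of the 8 sensors was 0.24. The part of the microglia in these values was not tested.

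In KO mice the transgene raised 7 of the 8 sensors, where 20.8% of all genes were called (18.9% without replicate 8). Zbp1 changed most, by a log2 of 2.71 (SE 0.45, adjusted p = 0.000154). The helicases rose by 1.06 for Ifih1 (SE 0.16, adjusted p = 3.00e-05), 1.10 for Ddx58 (SE 0.19, adjusted p = 0.000219) and 1.06 for Dhx58 (SE 0.21, adjusted p = 0.000632). Eif2ak2 rose by 0.94 (SE 0.17, adjusted p = 0.000267), Tlr3 by 0.63 (SE 0.07, adjusted p = 2.92e-07) and Mavs by 0.54 (SE 0.11, adjusted p = 0.000519). Adar had a log2 fold change of -0.19 (-0.35 to -0.02) and did not pass (adjusted p = 0.0946), except without KO Tg-SwDI replicate 5 (-0.24, adjusted p = 0.0281), with the replicate block (-0.27, adjusted p = 0.0173) or with the GC and length trend removed (-0.25, adjusted p = 0.0191), where it was called lower. With each of the 20 mice left out in turn, these 7 rises were called every time.

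Tlr3, Ifih1, Ddx58 and Mavs were higher in every KO mouse with the transgene than in any KO mouse without it, as was so (higher) for 8.47% of genes, and Dhx58, Zbp1 and Eif2ak2 overlapped only through replicate 8, without which 7 sensors did not overlap (10.4% of genes). This comparison and the comparison within Tg-SwDI mice share the KO Tg-SwDI mice. Choroid plexus markers differed as well, since no KO Non-Tg mouse was above 1000 CPM. KO Tg-SwDI replicate 2, the 1 mouse of its group that was low in them (135 CPM), measured 12.4 CPM of Ifih1, 15.1 of Ddx58, 12.1 of Eif2ak2 and 34.7 of Tlr3, above all 5 KO Non-Tg mice. With the choroid plexus score in the fit 7 sensors were still called, where 1228 of 16107 genes were called against 3351 without the score. The log2 fold changes were 0.56 for Tlr3, 0.93 for Ifih1, 0.91 for Ddx58, 0.89 for Dhx58, 2.85 for Zbp1, 0.74 for Eif2ak2 and 0.39 for Mavs. All 12 microglia markers rose too (median 1.36), and their part was not tested.

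**Figure D4:**
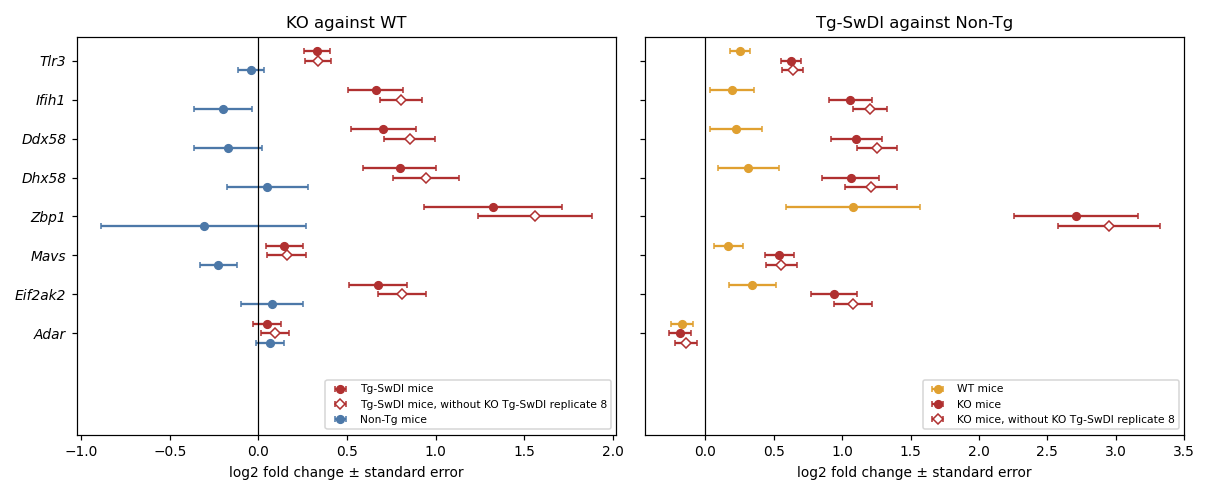
Log2 fold changes with standard errors of the 8 RNA sensor genes, for KO against WT (left) and Tg-SwDI against Non-Tg (right), with open diamonds for the fit without KO Tg-SwDI replicate 8. In Tg-SwDI mice Ifih1, Ddx58, Dhx58 and Eif2ak2 lie between 0.66 and 0.80 and in Non-Tg mice between -0.20 and 0.08, and Adar is near 0 or below it in all comparisons.

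Between mice of the same group the sensors varied together to different degrees. As deviations from the group means (log2 CPM, 20 mice, a description that shares the libraries), Ifih1, Ddx58 and Eif2ak2 were the closest, with Pearson correlations of 0.89 for Ifih1 and Ddx58, 0.92 for Ifih1 and Eif2ak2 and 0.90 for Ddx58 and Eif2ak2. Without KO Tg-SwDI replicate 8 these were 0.78, 0.86 and 0.83. With Dhx58 and Zbp1 added, the values over all 10 pairs of these 5 genes ran from 0.62 to 0.92 (0.39 to 0.86 without replicate 8). Tlr3 stood at 0.36 to 0.52 with those 5 genes (0.41 to 0.63 without replicate 8) and at 0.65 with Mavs. Mavs ran from 0.25 to 0.61 with the 5 genes (0.24 to 0.73 without replicate 8). Without that mouse the ranges of Tlr3 and Mavs thus overlapped with the range within the 5 genes. Adar ran from -0.18 to 0.22 with the other 7 (-0.43 to 0.02 without replicate 8).

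**Figure D5:**
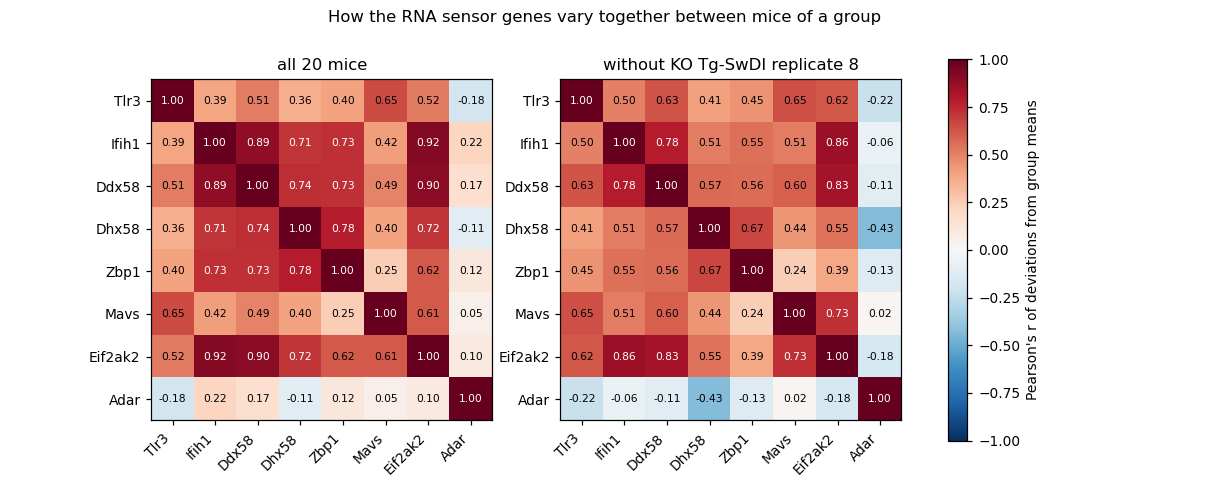
Pearson correlations between RNA sensor genes of the deviations of log2 CPM from group means, for all 20 mice (left) and without KO Tg-SwDI replicate 8 (right). The block of Ifih1, Ddx58 and Eif2ak2 is the darkest in both (0.89, 0.92 and 0.90 on the left), and on the left the Adar row lies between -0.18 and 0.22.

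The genes most like each sensor over the 20 mice were sought among all genes tested. Ifih1 was most like Irf9 (Pearson correlation of log2 CPM 0.974), Irf7 (0.971) and Rtp4 (0.962), Ddx58 was most like Rnf213 (0.975), Irgm1 (0.957) and Mx1 (0.956), and Eif2ak2 was most like Trim30a (0.958), Rnf213 (0.944) and Irf7 (0.937). Dhx58 ran with Gbp3 (0.945), Oas1a (0.924) and Gbp7 (0.922), and Zbp1 with Parp14 (0.932), Oas1a (0.931) and Slfn8 (0.930). Many of these, such as Irf7, Irf9, Mx1 and Oas1a, are known interferon-stimulated genes. Tlr3 was most like Nfatc1 (0.949), Lgals3bp (0.943) and Apoe (0.941), and Mavs was most like Tcn2 (0.927), F11r (0.921) and Lrp5 (0.919). Adar was most like Mfn2 (0.947), a protein of mitochondrial fusion, and the amino acid transporters Slc7a1 (0.877) and Slc7a3 (0.875). These correlations hold the group differences and are given as a description.

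Around the sensors, the genes of the same pathways were counted in KO against WT Tg-SwDI mice, where 1.99% of all genes were called with or without replicate 8. Of the other toll-like receptors and chaperones of this compartment (Tlr7, Tlr8, Tlr9, Unc93b1 and Cnpy3), 0 of 4 tested passed, with Tlr9 at 0.51 (adjusted p = 0.0760), Tlr7 at 0.44 (0.0890), Unc93b1, which carries these receptors to endosomes, at 0.32 (0.0562) and Cnpy3 at 0.00. Without replicate 8 Unc93b1 passed (0.36, adjusted p = 0.0348). With against without the transgene 3 of the 4 rose in each genotype, where 4.41% of all genes were called in WT and 20.8% in KO mice. The log2 fold changes were 1.502 in WT and 1.92 in KO mice for Tlr7, 0.69 and 1.48 for Tlr9 and 0.78 and 1.36 for Unc93b1. The interaction passed for Unc93b1 alone (0.57, adjusted p = 0.0402). Among adaptors, ligases, kinases and transcription factors of these pathways 0 of 15 passed, with a median log2 of 0.13. Without replicate 8, 1 passed, the transcription factor Irf7 (1.77, adjusted p = 0.0218). In KO mice with against without the transgene 6 of these 15 rose (20.8% of all genes were called), among them Irf7 (2.25, adjusted p = 0.00195), Trim25, a ligase of RIG-I (0.86, adjusted p = 0.000272), and Ticam1, the adaptor of Tlr3 (0.51, adjusted p = 0.000221).

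Of the oligoadenylate synthetase family, enzymes of antiviral defence raised by interferon, Oasl2 passed in KO against WT Tg-SwDI mice (1.66, adjusted p = 0.0323), as 1 of 7 tested of the list that holds this family (4 without replicate 8), with a median log2 of 1.24. Of 13 other RNA helicases and binding proteins of double-stranded RNA, 1 rose, Ddx60 (1.05, adjusted p = 0.0492), with a median of -0.09 for the list. The other kinases of eIF2 alpha and their targets gave 0 of 7, with Eif2ak1 at 0.15, Eif2ak3 at -0.03 and Eif2ak4 at -0.14, so of the 4 kinases of this substrate only Eif2ak2 was called. Inhibitors of RNA sensing gave 0 of 6 tested, with a median of -0.01 and Cyld at -0.22 (adjusted p = 0.0838). Ripk3 and Casp8, which act with Zbp1 in cell death, were at 0.32 and 0.23 and did not pass, and 0 of these 2 were called. In all genes tested the median log2 was 0.00.

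The interferon response list gave 6 of 12 called higher in KO against WT Tg-SwDI mice and 11 of 12 without replicate 8. In either fit 1.99% of all genes were called. With all mice the called genes of the list were led by Mx1 (1.77, adjusted p = 0.0135), Rsad2 (1.30, adjusted p = 0.0409) and Rtp4 (1.17, adjusted p = 0.0409). The median log2 of the list was 1.22, against 0.67 for the 8 sensors. With against without the transgene 0 of the 12 passed in WT mice (median 0.18) and 11 in KO mice (median 1.37), beside 1 and 7 of the 8 sensors, where 4.41% of all genes were called in WT and 20.8% in KO mice. The interferon genes were close to absent at this depth. Of 10 type I and type III interferon genes, among them Ifnb1, Ifna4 and Ifnl3, none had more than 1 read in any mouse, which does not show that the tissue made none. T cell markers stayed at 0.724 to 3.36 CPM in sum over 6 genes. Values of genes in families of similar sequence, such as the Oas and Gbp genes, are less certain, since the handling of reads that match several genes is not given in the sources used here.

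The positions of the sensors come from the GENCODE M21 annotation of mm10, and all are protein-coding. Tlr3 lies on chromosome 8 (45395665 to 45411080), Ifih1 on chromosome 2 (62595798 to 62646255), Ddx58 on chromosome 4 (40203773 to 40239828), Dhx58 on chromosome 11 (100694884 to 100704271), Zbp1 on chromosome 2 (173206612 to 173218923), Mavs on chromosome 2 (131234063 to 131248025), Eif2ak2 on chromosome 17 (78852564 to 78882573) and Adar on chromosome 3 (89715022 to 89753446). Exons of Adar overlap those of Chrnb2 on the other strand over 1365 bases, exons of Tlr3 those of Gm45542 over 381 bases, exons of Eif2ak2 those of Gm26637 over 174 bases and exons of Dhx58 those of Dhx58os over 141 bases. The libraries were stranded but the strand setting of the counting is not given in the sources used here, so reads of these partners may be included.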

How the data were processed

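Stranded mRNA libraries of the left hippocampus were sequenced for 20 mice, 5 in each of 4 groups taken from the sample labels. The authors aligned reads to mm10 with STAR and deposited raw read counts per ENSEMBL gene from featureCounts. Versions and the strand setting are not given in the sources used here. Counts were whole numbers, with 0 columns left unused, and GENCODE M21 named 38872 of 39056 genes (99.5%). In R 4.3.3, edgeR 4.0.16 kept genes with filterByExpr (minimum count 10, minimum total 15), scaled by TMM and fitted 1 robust quasi-likelihood model of 4 group means with 16 residual degrees of freedom. P-values were adjusted over 16107 genes (Benjamini-Hochberg, false discovery rate 0.05), and 95% confidence intervals came from that fit. CPM used the TMM-scaled total, and CPM per kilobase the union of exons. Correlations used log2 CPM with a prior count of 2. The fit was tested on simulated counts. DESeq2 1.42.0 was an alternative, and Python 3.11.15 read the sequences and drew the plots. Totals of 19549622 to 21066868 counts limit precision for Zbp1 and Dhx58. The study's methods give 5 mice per group, 1 library each. No pair of libraries of a group agreed within sampling noise, with a mean chi-square per gene of at least 2.39 over 40 pairs.

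Genes named were the 8 sensors, the largest called changes of each pathway list in KO against WT Tg-SwDI mice (at most 6), uncalled genes of lists with fewer than 8 genes, and the 3 genes most like each sensor. Irf7, Trim25, Ticam1 and 3 interferon genes were named outside this rule, after their values were seen, and some list members are not reported here. The sensors and lists were chosen with earlier results of these data known. The alternatives were RLE factors, library size alone, no filter, a mean CPM of at least 1, DESeq2, edgeR's likelihood ratio and exactTest, the 10 compared mice alone, the replicate number as a block, a choroid plexus score as a covariate, removal of each library's GC and length trend, a prior count of 0.5 and each mouse left out. Leaving out mitochondrial genes, and using only mice above 1000 CPM of choroid plexus markers, were added after seeing the data.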

Additional observations from a re-analysis of the deposited data

Results flagged for a closer look

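In 32 groups of 5 values (8 genes in 4 groups), 2 had a highest mouse set apart from the rest beyond Dixon's 95% critical value, which chance exceeds in about 5% of groups. Tlr3 of KO Tg-SwDI replicate 2 was at 34.7 CPM, against 29.8 to 30.7 CPM in the other 4 KO Tg-SwDI mice. This mouse was the only one of its group low in choroid plexus markers (135 CPM) and the highest in microglia markers (1264 CPM), and the part of either in its Tlr3 level was not tested. Zbp1 of WT Non-Tg replicate 7 was at 0.811 CPM, from 17 reads, against 0.282 to 0.331 CPM from 6 or 7 reads in the other 4. This mouse had the highest choroid plexus markers of all 20 (4405 CPM), and their part in its Zbp1 level was not tested. The low values of KO Tg-SwDI replicate 8 did not exceed the critical value for any sensor.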

How the results depend on the processing

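Over the 8 sensors and 5 comparisons, 469 of 514 values under other settings and 722 of 800 with a mouse left out kept their direction and their side of the threshold. The 5 calls in KO against WT Tg-SwDI mice were kept less often. Over 32 settings, with leave-one-out and without the replicate block, Tlr3 was called in 27 and Ifih1 in 23. Eif2ak2 was called in 20, Dhx58 in 16 and Ddx58 in 13 of them. In KO against WT Tg-SwDI mice the number of sensors called was 5, and 0 under library size alone, 3 without the filter, 1 with only the 10 mice compared, 4 with the GC and length trend removed, 6 with DESeq2, which added Zbp1, 0 under the replicate block alone or with that trend removed, and 0 in mice above 1000 CPM of choroid plexus markers (fewer mice). It ran from 0 to 6 with a mouse left out. For the transgene in WT mice the count of 1 became 0 under RLE factors, library size alone, no filter, the 10 mice, the choroid plexus covariate, the GC and length trend removed, alone or with the replicate block, and in choroid-high mice, and ran from 0 to 1 with a mouse left out. For the transgene in KO mice it ran from 7 to 8. The interaction count of 0 became 3 under DESeq2 and 1 under the likelihood ratio test, and ran from 0 to 2. With the choroid plexus covariate the sign turned for Tlr3 in KO against WT Non-Tg mice (0.013) and for Adar in the interaction (0.017). With a mouse left out the sign turned, within values that did not pass, for KO against WT in Non-Tg mice for Tlr3 (-0.090 to 0.021), Dhx58 (-0.12 to 0.18), Zbp1 (-0.74 to 0.11) and Eif2ak2 (-0.019 to 0.18), and for Adar in Tg-SwDI mice (-0.0097 to 0.11) and in the interaction (-0.073 to 0.045). The cause was not tested. Over 16 pairs of mice with the same number, deviations correlated from -0.40 to 0.15, with 2 over 0.1, and 1 mouse matched its own number best. These values showed no pairing by number, but they cannot exclude that mice with the same number were handled together. The block moved the calls over all genes in KO against WT Tg-SwDI mice from 320 to 8, and the interaction from 98 to 38. DESeq2 called 733 and 479. Group means of the levels per kilobase moved by less than 1 SD under library size alone.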
